A study of Homo sapiens with 30 samples.

Results

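KM12C is an established line of human colorectal carcinoma cells, described in the study as carrying a mutated *APC*, and elraglusib (9-ING-41) is a drug candidate that inhibits the kinase GSK-3. The arrays compared here are the 6 of this line among the 30 of the series, 3 of KM12C cells labelled 9-ING-41 24 hour treatment and 3 of KM12C cells labelled DMSO 24 hour treatment, DMSO being the vehicle alone. They were chosen by cell line and treatment label, not by any measured value. Both groups were grown in Eagle's minimal essential medium with serum, and RNA was taken after 24 h. The labels and the study's figure legend for the colorectal arrays give the dose as 1 µM, whereas the main text of the study speaks of the inhibitory concentrations of the lines. Replicates are labelled biological, but separate cultures are not stated for them, so p-values measure the spread between these samples. The result describes 1 line in culture. Each array was an Affymetrix Human Transcriptome Array, a 1-colour chip with probe sets for coding and for non-coding RNA, and the other 24 arrays hold the same treatment pair in HCT-116, HT-29, NK-92 and TALL-104 cells.

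GSK-3 is a kinase that is active in resting cells. It marks β-catenin for degradation inside a complex held together by APC and axin, and when that complex fails β-catenin enters the nucleus and switches on WNT target genes, several of which mark the stem cells of the intestinal crypt. GSK-3 also phosphorylates cyclins, MYC, components of the NF-κB pathway and glycogen synthase, so that its inhibition is studied for effects on growth, survival and immune signaling as well.

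The deposited values were log2 signals of 67528 probe sets, and a probe set is named here only where the annotation gives it 1 gene symbol, which held for 23781 probe sets of 22411 genes. The 6 arrays were quantile-normalized, which gives every array the same distribution of values, because the deposited median of DMSO replicate 3 was 4.47 on the log2 scale against 4.23 and 4.26 in the other DMSO arrays. The treated arrays had medians of 4.41 to 4.50. The words called, rose and fell are kept for genes whose limma p-value was under 0.05 after Benjamini-Hochberg adjustment across the 67528 probe sets. Differences are log2 signal in elraglusib arrays minus DMSO arrays with their standard error (SE), and no value is an absolute transcript level. The epithelial markers *EPCAM*, *KRT8*, *KRT18* and *CDH17* had mean signals in DMSO arrays of 15.25, 16.75, 16.23 and 12.47. The intestinal markers *KRT20* and *CDX1* were near the array median, at 4.89 and 4.21, and *CDX2* stood at 6.24. Of the markers of T and NK cells, fibroblasts and myeloid cells, 0 of 16, 0 of 8 and 0 of 8 were called, and all but *LCK* (8.25) and *CD68* (8.56) had a mean signal under 6.

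DMSO replicate 3 stood apart from its group. On the first principal component of the probe sets with a mean log2 signal of at least 6, which held 64.3% of the variance, the treated arrays lay at -28.5, -23.6 and -38.9, DMSO replicates 1 and 2 at 41.3 and 39.6, and DMSO replicate 3 at 10.2. Limma's estimate of array quality gave it a weight of 0.427, the lowest of the 6 arrays. Over the 5051 probe sets called when it was left out, its value lay a median of 54.1% of the way from the mean of DMSO replicates 1 and 2 to the mean of the treated arrays. That position differed between gene groups, being -27.2% over the called histone genes and 8.89% over the called stress response genes, but 91.2% over the called microRNA genes. Neither the arraying batch nor the RNA isolation batch of an array is given in the sources used here, so their part in this was not tested. The counts of the main gene groups are therefore given with and without this array. Without it, the controls left are those whose deposited medians, 4.23 and 4.26, lay below those of all treated arrays (4.41 to 4.50).

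**Figure D1:**
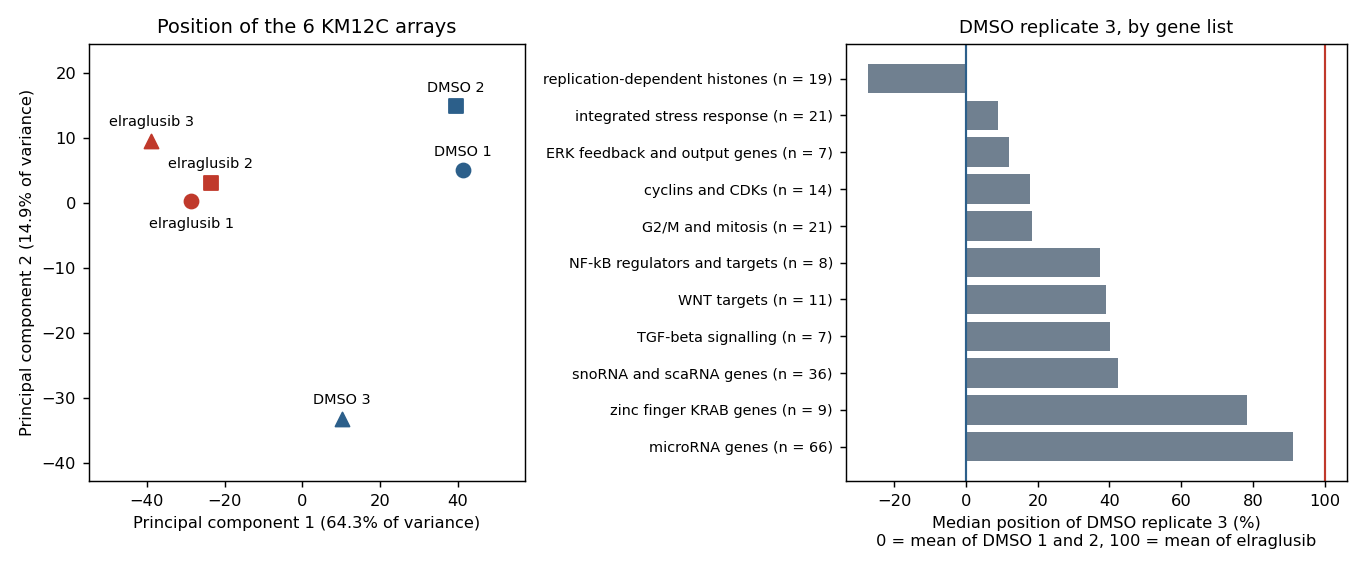
The left panel plots the 6 KM12C arrays on the first and second principal components (64.3% and 14.9% of the variance); blue points are DMSO arrays, red points are elraglusib arrays, and circle, square and triangle are replicates 1, 2 and 3. The right panel shows, for the genes of each list called without DMSO replicate 3, the median position of that array on a scale where 0% is the mean of the other DMSO arrays and 100% the mean of the treated arrays, from -27.2% for histone genes to 91.2% for microRNA genes.

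More genes fell than rose after elraglusib. Limma called 1389 probe sets, 2.06% of all, with 495 higher and 894 lower. Among the 22411 genes, 149 rose (0.665%) and 542 fell (2.42%). Without DMSO replicate 3 the same test called 5051 probe sets, and 692 genes rose (3.09%) and 1714 fell (7.65%). Without DMSO replicate 1, by contrast, 82 probe sets were called, 16 higher and 66 lower, and without any other single array 209 to 320. A fold change beyond 1.5 with an unadjusted p under 0.05, after the cutoffs in the study's results text, was met by 3382 probe sets (5.01%), 1479 higher and 1903 lower. Centring the arrays on their medians in place of quantile normalization moved that split to 888 higher and 3107 lower, and the deposited values gave 1902 higher and 1871 lower. Counted by gene, the same rule gave 327 higher and 875 lower, against 137 and 1658 with median centring and 319 and 968 on the deposited values. Of the 691 genes called, 37 stayed called whichever array was left out, and none changed sign in those fits. In all 691 the elraglusib and DMSO arrays did not overlap, so that separation adds nothing to a call. Protein-coding genes made up 107 of the 149 rises and 519 of the 542 falls. List counts below are to be read beside the shares of all genes, 0.665% higher and 2.42% lower, or 3.09% and 7.65% without DMSO replicate 3. A gene can belong to several lists, as *MYC* and *PHLDA1* do, so counts of different lists are not separate results.

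The strongest falls among WNT target genes were those of crypt stem cell genes. *LGR5*, the receptor for R-spondins that marks intestinal stem cells, had log2 signals of 10.18, 10.32 and 10.24 in the elraglusib arrays and 13.14, 12.95 and 12.63 in the DMSO arrays. The groups did not overlap, as for every called gene, and the treated arrays lay close together, with an SD of 0.074 (n = 3). *LGR5* fell by 2.66 (SE 0.14, limma adjusted p = 0.00354), a 6.32-fold lower signal. *SOX9*, a transcription factor of crypt progenitors, read 11.13, 11.22 and 10.95 with elraglusib and 13.90, 13.54 and 13.28 with DMSO, and fell by 2.47 (SE 0.17, limma adjusted p = 0.00398). *SMOC2*, a secreted matrix protein gene expressed in intestinal stem cells, read 5.78, 6.14 and 5.89 against 8.32, 7.92 and 7.26. DMSO replicate 3 was the lowest control for all 3 of these genes, and it still lay above every treated array. *SMOC2* fell by 1.90 (SE 0.26, limma adjusted p = 0.0225). Of 34 WNT targets measured, 6 fell (17.6%, against 2.42% of all genes), 0 rose and 28 were not called. The list median was -0.13 beside -0.01 over all genes. The remaining falls were *MYC*, the growth-promoting transcription factor, by 0.87 (SE 0.12), *RNF43*, a ligase that removes WNT receptors, by 0.62 (SE 0.10), and *PHLDA1*, by 0.60 (SE 0.10). The counts were 10 falls and 1 rise without DMSO replicate 3, where 7.65% of all genes fell and 3.09% rose. Without DMSO replicate 1 only *LGR5* and *SOX9* remained called, at limma adjusted p = 0.0371 and 0.0371. *SMOC2* and *MYC* were each called in 1 of the 6 fits that left out an array, the one without DMSO replicate 3.

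Of the genes for the kinase and its β-catenin complex, most were not called. *GSK3A* and *GSK3B*, which encode the kinases that elraglusib inhibits, differed by 0.43 (SE 0.12, limma adjusted p = 0.131) and 0.28 (SE 0.11, limma adjusted p = 0.264). *CTNNB1*, the gene of β-catenin, read 10.79, 10.87 and 10.85 with elraglusib and 10.85, 10.90 and 10.74 with DMSO, and the groups overlapped. Its difference of 0.00361 had an SE of 0.09. *AXIN2*, a feedback target of WNT signaling, differed by -0.22 (SE 0.10, limma adjusted p = 0.342). Of 22 genes of GSK-3 and the destruction complex, 1 was called, *TNKS2*, a tankyrase that destabilizes axin, which fell by 0.52 (SE 0.09). In the fit without DMSO replicate 3, 4 fell, *APC* among them (-0.74, limma adjusted p = 0.035).

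Histone genes made up 6 of the 12 largest falls. Replication-dependent histones are packed in clusters, are transcribed in S phase, and supply the proteins that wrap new DNA. Of 66 listed, 29 had a probe set with 1 gene symbol and were measured, with no H3 gene among them. Of these 29, 19 fell (65.5%, against 2.42% of all genes) and 0 rose, a median of -1.19. By class, 10 of 14 H2B genes, 5 of 8 H2A genes, 3 of 6 H1 genes and the single H4 gene fell. *H2BC10* read 7.27, 7.86 and 7.72 with elraglusib and 10.16, 9.85 and 10.66 with DMSO. *H2BC14* read 11.04, 11.06 and 10.88 against 13.68, 12.97 and 14.10, and *H1-2*, a linker histone gene, 5.16, 5.56 and 5.28 against 7.29, 7.32 and 7.56. In each of these 3 genes DMSO replicate 3 was the highest of all arrays, the reverse of its place for the stem cell genes. *H2BC10* fell by 2.61 (SE 0.24, limma adjusted p = 0.00772), *H2BC14* by 2.59 (SE 0.26, limma adjusted p = 0.0103) and *H1-2* by 2.06 (SE 0.14, limma adjusted p = 0.00354). *H1-4*, *H2BC17* and *H2BC11* fell by 2.37 (SE 0.26), 2.06 (SE 0.26) and 2.01 (SE 0.16). *H4C3*, at 13.86, 13.83 and 13.63 against 15.36, 14.99 and 15.44, fell by 1.49 (SE 0.14). The count was again 19 without DMSO replicate 3 and 3 without DMSO replicate 1 (*H1-2*, *H2BC11* and *H2AC14*). Histone genes are near-identical in sequence, so a probe set may read several of them, and a bulk array cannot tell fewer cells in S phase from less histone RNA in each cell. *NPAT*, a coactivator that drives histone transcription, was looked up after the histone values were seen. It fell by 0.98 (SE 0.15, limma adjusted p = 0.0309), and lost its call without any array but DMSO replicate 3.

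Histone H2B promoters hold an octamer, ATTTGCAT, that is bound by OCT1. Within the 250 bases before the start in the RefSeq promoter table (GRCh38.p14), this motif on either strand was found in 17 of 27 histone genes with an entry, in 12 of the 17 called ones with an entry and in 5 of the 10 others, and in 1.66% of all 27305 promoters. The windows of 4 strongly falling genes are shown 5′ to 3′ on the strand of the gene, with the octamer in capitals. *H2BC10* lies at chr6:26272856-26272923 (+ strand), *H2BC11* at chr6:27132805-27132872 (- strand) and *H2BC14* at chr6:27814944-27815011 (+ strand). *H2AC14* is the divergent neighbour of *H2BC14*, and its window covers the same 68 bases read from the other strand. *H2AC14* also fell, by 1.36 (SE 0.11, limma adjusted p = 0.00585).
H2BC10: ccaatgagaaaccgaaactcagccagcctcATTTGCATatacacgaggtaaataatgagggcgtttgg
H2BC11: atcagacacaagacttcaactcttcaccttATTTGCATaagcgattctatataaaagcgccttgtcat
H2BC14: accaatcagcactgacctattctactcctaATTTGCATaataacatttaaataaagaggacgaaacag
H2AC14: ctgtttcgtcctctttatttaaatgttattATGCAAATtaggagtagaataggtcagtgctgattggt

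Genes of the integrated stress response, the program that ATF4 turns on when amino acids run short, were the other large group among the falls. Of 45 measured, 18 fell (40%, against 2.42% of all genes), 0 rose and 27 were not called, with a median of -0.44. *SLC38A2*, a transporter of small neutral amino acids, read 12.39, 12.31 and 12.33 with elraglusib and 14.95, 14.85 and 14.71 with DMSO. It fell by 2.50 (SE 0.10, limma adjusted p = 0.00191), a 5.64-fold lower signal. *PSAT1*, an enzyme of serine synthesis, read 13.39, 13.29 and 12.76 against 15.44, 15.33 and 15.39 and fell by 2.24 (SE 0.17, limma adjusted p = 0.00506). The signal of its pseudogene *PSAT1P4* fell by 2.16 (SE 0.19), and the probes of such copies may not separate them. *ASNS*, asparagine synthetase, read 8.90, 8.69 and 8.79 against 10.30, 10.12 and 10.82, and *CHAC1*, which breaks down glutathione, 6.67, 6.50 and 6.61 against 8.60, 7.78 and 8.23. The groups did not overlap for any of these 4 genes, as for every called gene. *ASNS* fell by 1.62 (SE 0.18, limma adjusted p = 0.0124) and *CHAC1* by 1.61 (SE 0.20, limma adjusted p = 0.0168).

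By role, 6 of 10 enzymes of amino acid and one-carbon metabolism in that list fell, *PHGDH*, *MTHFD2*, *CTH* and *PCK2* among them, by 0.77, 0.72, 0.71 and 0.63. Of 9 transporters 4 fell, including *SLC1A4* by 1.28 and *SLC7A5*, the leucine carrier, by 0.63. Of 10 genes for aminoacyl-tRNA synthetases and the tRNA exporter *XPOT*, 6 fell, with *EPRS1* at -1.16 (SE 0.13) and *CARS1* at -1.07 (SE 0.09). The 7 transcription factors of the program were not called. *ATF4* itself read 11.91, 11.92 and 11.76 with elraglusib and 11.79, 11.69 and 12.16 with DMSO, the groups overlapped, and the difference was -0.02 (SE 0.14). *DDIT3*, which encodes the factor CHOP, differed by 0.36 (SE 0.12, limma adjusted p = 0.193), and *HSPA5*, the chaperone of the endoplasmic reticulum that answers to unfolded proteins, by -0.08 (SE 0.08). Without DMSO replicate 3, 21 members of the list fell, and without DMSO replicate 1, 3 did (*SLC38A2*, *PSAT1* and *CARS1*).

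ATF4 binds C/EBP-ATF elements, searched here as TGATGNAA on both strands in the same 250 bases. The letters were found in 3 of the 18 called genes of the list, in 4 of the 21 others with an entry, and in 3.19% of all promoters. The 3 called genes are shown on the strand of the gene with the element in capitals, read backwards as TTGCATCA where it lies on the other strand. *CHAC1* lies at chr15:40953232-40953299 (+ strand), *ASNS* at chr7:97872439-97872506 (- strand) and *AARS1*, the alanine tRNA synthetase gene, at chr16:70289656-70289723 (- strand). *AARS1* fell by 0.76 (SE 0.09, limma adjusted p = 0.0154).
CHAC1: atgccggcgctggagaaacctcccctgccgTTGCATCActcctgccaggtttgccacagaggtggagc
ASNS: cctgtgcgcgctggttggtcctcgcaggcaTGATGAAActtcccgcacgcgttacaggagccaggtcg
AARS1: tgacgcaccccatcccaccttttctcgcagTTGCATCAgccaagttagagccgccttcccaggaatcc

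**Figure D2:**
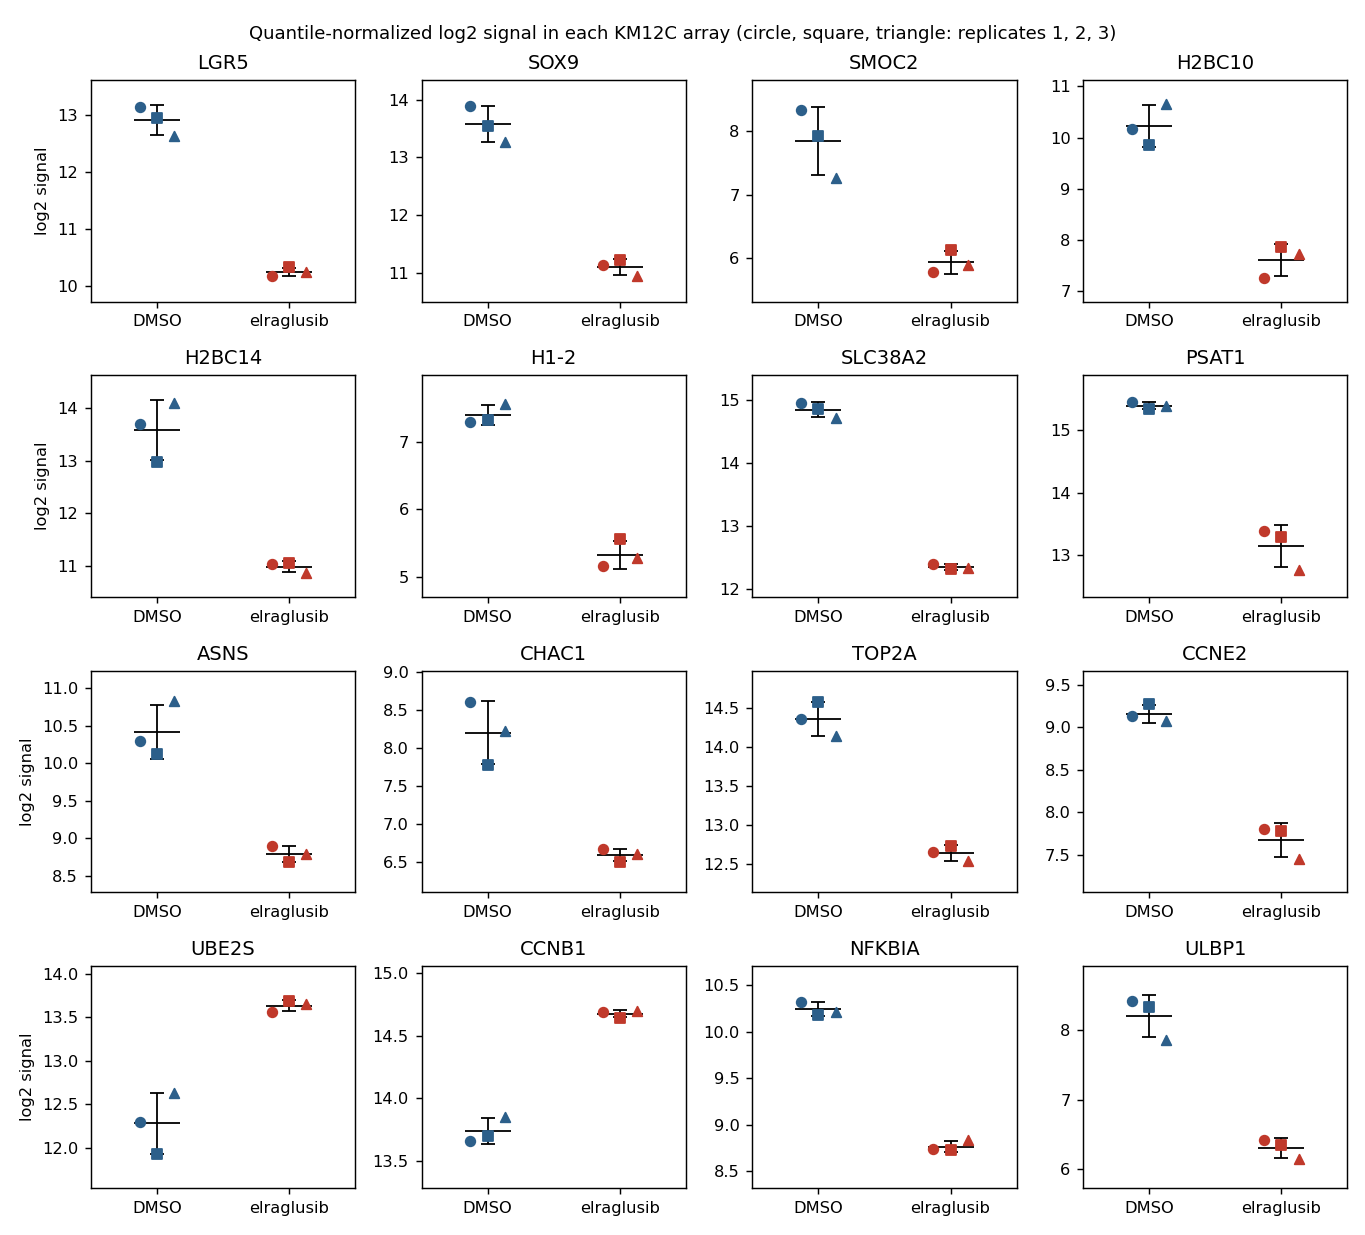
Each panel plots the quantile-normalized log2 signal of 1 gene in the 3 DMSO arrays (blue) and the 3 elraglusib arrays (red), with circle, square and triangle for replicates 1, 2 and 3, the horizontal line for the group mean and the bar for 1 SD. The groups are apart in all 16 panels, as for every called gene, 14 genes being lower with elraglusib and *UBE2S* and *CCNB1* higher.

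Cell cycle genes moved in both directions. Of 82 genes of G2/M and mitosis, 7 rose (8.54%) and 6 fell (7.32%, median -0.02). Of 34 cyclins, CDKs and their regulators 5 rose (14.7%) and 7 fell (20.6%, median -0.08), against 0.665% and 2.42% of all genes. *CCNB1*, cyclin B1, read 14.69, 14.64 and 14.70 with elraglusib and 13.66, 13.70 and 13.85 with DMSO and rose by 0.94 (SE 0.09, limma adjusted p = 0.00917). *CDC20*, which activates the anaphase-promoting complex, rose by 0.92 (SE 0.10, limma adjusted p = 0.0121), and *CKS2*, a subunit of CDK complexes, by 1.13 (SE 0.15, limma adjusted p = 0.0216). The mitotic kinase *AURKA*, its partner *TACC3*, *CCNB2* and the phosphatase *CDC25B* rose by 0.66, 0.58, 0.64 and 0.50. *TOP2A*, topoisomerase IIα, read 12.65, 12.73 and 12.53 against 14.36, 14.57 and 14.13 and fell by 1.72 (SE 0.13, limma adjusted p = 0.00506). *BUB3*, of the spindle checkpoint, fell by 1.22 (SE 0.09), and *CDK1*, the partner of cyclin B, by 0.89 (SE 0.10). Without DMSO replicate 3 the mitosis list held 9 rises and 12 falls and the cyclin list 5 and 9, whereas without DMSO replicate 1 the only calls in either were the falls of *TOP2A* and *BUB3*.

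The enzymes that place ubiquitin for the anaphase-promoting complex differed in direction. *UBE2S*, which extends ubiquitin chains, read 13.56, 13.69 and 13.65 with elraglusib and 12.29, 11.93 and 12.62 with DMSO and rose by 1.35 (SE 0.17, limma adjusted p = 0.0188). *UBE2C*, which starts those chains, read 8.66, 8.81 and 8.34 against 10.16, 10.05 and 10.39 and fell by 1.60 (SE 0.15, limma adjusted p = 0.0089). *FZR1* (CDH1) and *FBXO5* (EMI1), an activator and an inhibitor of the complex that were picked after their values were seen, fell by 1.11 (SE 0.12) and 1.24 (SE 0.17). *UBE2S* was called in 2 of the 6 fits that left out an array, *UBE2C* in 5, *FZR1* in 4 and *FBXO5* in 3. Each of the 4 lost its call without DMSO replicate 1, where the adjusted p was 0.104, 0.0604, 0.0713 and 0.125. *CDC20P1*, a processed copy of *CDC20*, rose by 1.42 (SE 0.16), and cross-reading between the copies was not tested.

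The cyclin E genes, which drive entry into S phase, fell. *CCNE2*, cyclin E2, read 7.80, 7.78 and 7.45 against 9.13, 9.28 and 9.07 and fell by 1.48 (SE 0.13, limma adjusted p = 0.00629), and *CCNE1* fell by 0.59 (SE 0.10). *E2F8*, a repressor of the E2F family, fell by 1.50 (SE 0.16, limma adjusted p = 0.011), as did the pocket protein genes *RBL1* by 1.30 (SE 0.16) and *RB1* by 0.65 (SE 0.11), and *WEE1*, the kinase that holds CDK1 inactive, by 1.00 (SE 0.09). Of 60 S phase genes and E2F targets, 4 fell (6.67%, against 2.42% of all genes) and 0 rose, and the median was -0.10, beside -0.01 over all genes. *E2F1* differed by 0.28 (SE 0.11, limma adjusted p = 0.244). Of 31 genes of homologous recombination and the Fanconi pathway, 3 fell (9.68%), *BARD1*, the partner of BRCA1, by 1.37 (SE 0.15), *BRIP1* by 0.99 (SE 0.14) and *RAD51AP1* by 0.52 (SE 0.09). Without DMSO replicate 3 these lists held 9 and 7 falls beside 4 and 1 rises, and without DMSO replicate 1 both held 0 calls. *MKI67*, the proliferation marker Ki-67, read 13.77, 13.91 and 12.67 with elraglusib and 14.44, 15.07 and 13.95 with DMSO. Its groups lay apart by less than the spread within each, and the difference of -1.04 (SE 0.39) was not called (limma adjusted p = 0.24). It did pass the fold and unadjusted p rule. Of the 8 cell cycle genes that the study lists for KM12C, 4 fell (*CCNE2*, *CDK1*, *BARD1* and *CCNE1*), a list chosen on these arrays. The fold and unadjusted p rule also gave 4 lower.

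**Figure D3:**
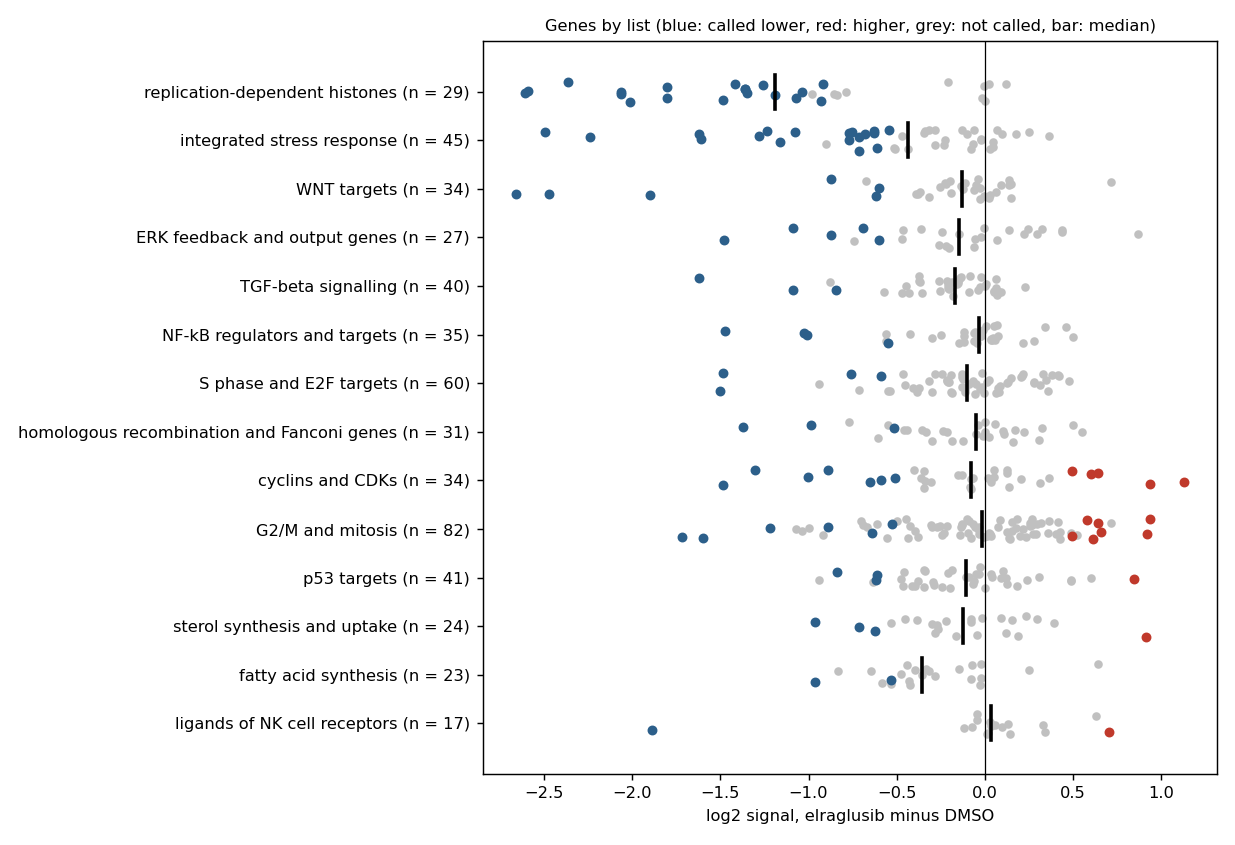
Each point is a gene, placed by its log2 signal in elraglusib minus DMSO arrays (x axis) within its list (y axis, with the number measured); blue points were called lower, red points called higher and grey points not called, and the black bar is the list median. Histone genes have a median of -1.19 with 19 of 29 called lower, stress response genes -0.44 with 18 of 45, and the other lists lie nearer to 0.

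Feedback genes of the ERK pathway, which ERK switches on and which restrain it, were among the falls. *SPRY1*, which restrains receptor tyrosine kinases, read 6.53, 6.63 and 6.80 against 8.22, 8.17 and 8.01 and fell by 1.48 (SE 0.11, limma adjusted p = 0.00506). *DUSP6*, the phosphatase of ERK, read 9.69, 9.69 and 9.59 against 10.69, 10.77 and 10.76 and fell by 1.09 (SE 0.08, limma adjusted p = 0.00506). All treated arrays were below all DMSO arrays for both, as for every gene called lower, and both were called whichever array was left out. Of 27 genes of ERK feedback and output, 5 fell (18.5%, against 2.42% of all genes) and 0 rose (median -0.15), the others being *ETV1*, *MYC* and *PHLDA1*. *FOSL1*, an AP-1 subunit in that list, stood at 0.87 (SE 0.18) and was not called (limma adjusted p = 0.0671), though it was without DMSO replicate 3 (limma adjusted p = 0.0348), where the list held 6 falls and this 1 rise.

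Among the genes of TGFβ signaling, receptors and a co-receptor fell. *TGFBR3*, betaglycan, read 8.46, 8.47 and 8.43 with elraglusib and 10.28, 10.22 and 9.73 with DMSO and fell by 1.62 (SE 0.15, limma adjusted p = 0.00878). *TGFBR2*, the type II receptor, and *CD109*, a co-receptor that dampens the pathway, fell by 0.85 (SE 0.11) and 1.09 (SE 0.15). These were the 3 falls among 40 genes of the pathway (7.5%, against 2.42% of all genes, median -0.17), with 0 rises. The latent TGFβ binding gene *LTBP1* stood at -0.88 (SE 0.17, limma adjusted p = 0.0553), and the 4 genes are the ones the study lists for this pathway from these arrays, so their direction is not independent evidence. All 4 were lower under the fold and unadjusted p rule. There were 7 falls among the 40 without DMSO replicate 3, *LTBP1* included, where 7.65% of all genes fell. Without DMSO replicate 1, 0 were called, and *TGFBR3* had an adjusted p of 0.0548.

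In the NF-κB pathway an inhibitor and several activators fell. *NFKBIA*, which encodes IκBα, the protein that holds NF-κB in the cytoplasm and is itself an NF-κB target, read 8.73, 8.72 and 8.84 with elraglusib and 10.32, 10.18 and 10.21 with DMSO. All treated arrays were below all DMSO arrays, as for every gene called lower, and DMSO replicate 3 lay between the other DMSO arrays. *NFKBIA* fell by 1.47 (SE 0.09, limma adjusted p = 0.00354), called whichever array was left out. The receptor genes *TNFRSF11A* (RANK) and *TLR3* fell by 1.01 (SE 0.12) and 1.03 (SE 0.16), and the adaptor *TRAF6* by 0.55 (SE 0.10). Of the 35 regulators and targets, 4 fell (11.4%, against 2.42% of all genes) and 0 rose (median -0.04). *NFKBIA*, *TNFRSF11A*, *TLR3* and *TRAF6* are all named by the study as NF-κB regulators from its colorectal arrays, which include these, so their direction is not independent evidence. Over the colorectal lines the study reports many negative regulators as increased and several positive ones as decreased, and it names *NFKBIA* in both groups. The fall of *NFKBIA* in KM12C is opposite to the direction given for the negative group. In the fit over the colorectal lines it stood at -1.49 in KM12C, 0.69 in HCT-116 and -2.59 in HT-29. Besides *NFKBIA*, 15 positive regulators are listed, and 5 of them fell, *MAP3K1* by 0.74 and *IRAK1BP1* by 0.70 among them. Of 4 negative regulators *NFKBIA* alone was called, whereas *TRAIP*, *IL32* and *TNFAIP3* stood at 0.50, 0.46 and 0.04. *IL32* was called higher without DMSO replicate 3 (limma adjusted p = 0.0392). Without DMSO replicate 3 the 15 held 8 falls, and without DMSO replicate 1, 0. Under the fold and unadjusted p rule 6 of the 15 were lower, and these lists too were drawn from the same arrays. Of 29 chemokines and cytokines, of which 5 had a mean signal of at least 6, *TNFSF10* (TRAIL) fell by 1.02 (SE 0.13) and *CXCL3* by 0.77 (SE 0.14).

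Of 17 ligands of NK cell receptors, 1 rose and 1 fell (5.88% each, against 0.665% and 2.42% of all genes) and 15 were not called. There were 3 rises and 1 fall when DMSO replicate 3 was left out and 0 and 1 when DMSO replicate 1 was. *ULBP1*, a ligand of the activating receptor NKG2D, read 6.42, 6.35 and 6.15 with elraglusib and 8.40, 8.33 and 7.85 with DMSO and fell by 1.89 (SE 0.16, limma adjusted p = 0.00685), called whichever array was left out. *ULBP2*, a ligand of the same receptor, read 9.00, 9.09 and 9.07 against 8.32, 8.19 and 8.54 and rose by 0.71 (SE 0.11, limma adjusted p = 0.0337), although of the fits with 1 array left out it was called only in that without DMSO replicate 3, and without DMSO replicate 1 its adjusted p was 0.153. *MICA* and *MICB* stood at 0.34 (SE 0.11) and 0.33 (SE 0.11) and were not called, *MICA* being called higher without DMSO replicate 3 (limma adjusted p = 0.0493). Of 30 genes of antigen processing and checkpoint ligands, *ERAP2*, a peptidase that trims antigens, fell by 0.85 (SE 0.14), and *CD274*, the gene of PD-L1, read 5.33, 5.60 and 5.43 against 5.77, 5.64 and 5.67 with a difference of -0.24 (SE 0.10, limma adjusted p = 0.302). *GZMA*, a granzyme gene listed by the study for KM12C, was dim at 4.06, 4.58 and 4.84 with elraglusib and 3.58, 3.89 and 4.08 with DMSO, near the array median, and the groups overlapped. At 0.64 it passed the fold and unadjusted p rule but was not called.

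p53 targets and death genes were mostly not called. Of 41 p53 targets, *TRIAP1*, an inhibitor of apoptosis, rose by 0.85 (SE 0.12), and *ZMAT3*, *SESN1* and *DRAM1* fell by 0.84, 0.62 and 0.61 (median of the list -0.11, with 2 rises and 7 falls without DMSO replicate 3). The shares were 2.44% higher and 7.32% lower, against 0.665% and 2.42% of all genes. *CDKN1A*, the gene of the CDK inhibitor p21, had a mean log2 signal of 7.08 ± 0.071 with elraglusib and 6.95 ± 0.16 with DMSO (SD, n = 3), with overlapping groups and a difference of 0.13 (SE 0.11). *MDM2*, whose product degrades p53, differed by -0.47 (SE 0.12, limma adjusted p = 0.113), and was called lower without DMSO replicate 3 (limma adjusted p = 0.0211). Of the 2 proapoptotic genes the study lists, *TNFRSF12A*, the receptor of TWEAK, rose by 0.68 (SE 0.09, limma adjusted p = 0.0181) and *BIK* stood at 0.25 (SE 0.16, limma adjusted p = 0.516). *APAF1*, which assembles the apoptosome, fell by 0.70 (SE 0.12), and 0 of 15 antiapoptotic genes were called. Without DMSO replicate 1 none of the genes of this paragraph was called.

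*VEGFA* was the 1 gene called, lower, among 24 of angiogenesis and VEGF signalling. *VEGFA*, the angiogenic growth factor, read 7.47, 7.40 and 7.42 with elraglusib and 8.63, 8.53 and 8.33 with DMSO and fell by 1.07 (SE 0.10, limma adjusted p = 0.00917). *SLC30A1*, which exports zinc, read 10.14, 10.24 and 10.11 against 11.76, 11.68 and 11.70 and fell by 1.55 (SE 0.08, limma adjusted p = 0.00354), while 0 of the other 18 metallothioneins and zinc transporters were called. The desaturase gene *SCD* fell by 0.96 (SE 0.10), its regulator *SREBF1* by 0.53 (SE 0.10) and *INSIG1* by 0.62 (SE 0.09), whereas *PMVK*, a kinase of the mevalonate pathway, rose by 0.92 (SE 0.11). Of 24 genes of sterol synthesis and uptake, 3 fell (12.5%) and 1 rose (4.17%), and of 23 genes of fatty acid synthesis, 2 fell (8.70%, median -0.36) and 0 rose. Both lists hold *SCD*, so their falls are not separate counts. With DMSO replicate 3 left out these lists held 4 falls and 3 rises, and 11 falls and 1 rise. Of 29 mesenchymal genes and regulators of epithelial-mesenchymal transition 2 fell (6.90%, against 2.42% of all genes), *ITGAV* and *MET*, by 0.97 (SE 0.10) and 0.66 (SE 0.11). Of the 7 genes the study lists for epithelial-mesenchymal transition *E2F8* and *MET* were called, with 6 called without DMSO replicate 3. Under the fold and unadjusted p rule, 5 of the 7 were lower. Without DMSO replicate 1 neither these 7 genes nor the lists of mesenchymal, fatty acid, sterol and angiogenesis genes held a call, whereas *SLC30A1* was still called. The potassium channel gene *KCNJ2* completed the 12 largest falls at -1.97 (SE 0.16). *AHR* stood at -0.68 (SE 0.14, limma adjusted p = 0.0676) and its target *CYP1A1*, at 5.72, 5.99 and 4.91 with elraglusib and 5.29, 5.08 and 4.94 with DMSO, was not called.

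The largest rises were of small RNAs and copies. *SNORD41*, a C/D box RNA that guides methylation of ribosomal RNA, read 15.87, 15.72 and 15.96 with elraglusib and 12.70, 12.69 and 14.02 with DMSO and rose by 2.71 (SE 0.35, limma adjusted p = 0.0185). DMSO replicate 3 lay 41.9% of the way to the treated arrays, and the adjusted p was 0.00464 without it and 0.0936 without DMSO replicate 1. *SCARNA17* rose by 1.68 (SE 0.19), *SNORA54* by 1.45 (SE 0.22) and *SCARNA9L* by 1.42 (SE 0.26). Of 259 snoRNA and scaRNA genes, 9 rose (3.47%, against 0.665% of all genes) and 5 fell (1.93%, against 2.42%), *SNORA65* by 1.80 among the latter. With DMSO replicate 3 left out 29 rose and 7 fell, and with DMSO replicate 1 left out 2 rose and 0 fell. *SNORA55* and *SNORD1A*, at 1.21 and 1.25, were called whichever array was left out. *EBLN2*, a gene derived from a bornavirus, rose by 1.93 (SE 0.12, limma adjusted p = 0.00354), also in every such fit. *RNA5SP108*, a 5S ribosomal pseudogene, and *AGAP7P*, a pseudogene of a multicopy family, rose by 1.50 (SE 0.16) and 1.46 (SE 0.17). How well the RNA isolation kept short RNAs was not assessed.

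Of 1059 microRNA genes, 11 rose (1.04%, against 0.665% of all genes) and 5 fell (0.472%, against 2.42%). Only 130 of the 1059 had a mean signal of at least 6, so most were dim, and the low share of falls is not read as a property of microRNAs. The counts of rises and falls went to 48 and 18 without DMSO replicate 3 and to 0 and 0 without DMSO replicate 1. The array reads the hairpin gene or the transcript around it, not the mature microRNA. *MIR4521* read 11.36, 11.03 and 11.31 with elraglusib and 9.07, 8.35 and 9.55 with DMSO and rose by 2.24 (SE 0.29, limma adjusted p = 0.0188). *MIR181B1* read 5.08, 5.02 and 4.61 against 6.70, 6.55 and 6.26 and fell by 1.60 (SE 0.17, limma adjusted p = 0.011), and *MIR590* read 6.48, 6.56 and 5.69 against 8.15, 7.91 and 8.04 and fell by 1.79 (SE 0.23, limma adjusted p = 0.0188). *MIR4441* and *MIR5047* rose by 1.61 (SE 0.22) and 1.31 (SE 0.19), and *MIR454* and *MIR25* fell by 1.02 (SE 0.13) and 0.53 (SE 0.09). The groups did not overlap for these 7 genes, as for every called gene. RefSeq held mature sequences for 14 of the 16 called microRNA genes. Those of the 5 below are shown 5′ to 3′ with the seed, bases 2 to 8, in capitals, and all 5 seeds differ.
hsa-miR-4521: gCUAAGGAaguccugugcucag
hsa-miR-181b-5p: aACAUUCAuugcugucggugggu
hsa-miR-590-5p: gAGCUUAUucauaaaagugcag
hsa-miR-454-3p: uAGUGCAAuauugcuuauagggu
hsa-miR-25-3p: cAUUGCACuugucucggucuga

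The response of KM12C was set against those of HCT-116 and HT-29, colorectal carcinoma lines labelled with the same dose and time and grown in another medium, in a limma fit of the 18 arrays of these lines. Elraglusib minus DMSO differed between KM12C and HCT-116 for 3.98% of genes and between KM12C and HT-29 for 7.22%. *LGR5*, at -2.63 in KM12C in this fit (SE 0.18), stood at 0.30 in HCT-116 and -3.41 in HT-29, so that KM12C differed from HCT-116 (limma adjusted p = 1.34e-05) but not beyond the threshold from HT-29 (0.0926). *SOX9*, *SLC38A2*, *PSAT1*, *SLC30A1* and *CCNB1* followed that pattern, each called against HCT-116 and not against HT-29. In *SLC38A2*, for example, the difference was -2.48 in KM12C, -2.20 in HT-29 and 0.04 in HCT-116. *SMOC2*, *ASNS*, *CHAC1* and *ULBP1* were lower in KM12C than the response of either line. *ASNS* stood at -1.63 in KM12C against 0.01 in HCT-116 and -0.03 in HT-29 (SE 0.13 in each, limma adjusted p = 0.000241 and 0.000186), and *SMOC2* at -1.91 against -0.13 and -0.03. Signal levels in HCT-116 and HT-29 are not given here, and a gene that is dim in a line has little room to fall there. *H2BC14*, *H1-4* and *NFKBIA* fell less in KM12C than in HT-29, and were lower than in HCT-116.

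Among the 16 genes compared, which were chosen with earlier results known, the widest gap to HCT-116 was that of *GDF15*, a stress cytokine gene and p53 target. It was 2.83 in HCT-116 and -0.93 in KM12C, a difference of -3.76 (SE 0.35, limma adjusted p = 2.73e-05), and *MDM2* was 1.98 and -0.46. *CDKN1A* stood at 1.55 in HCT-116, 0.59 in HT-29 and 0.12 in KM12C, where it differed from HCT-116 (limma adjusted p = 0.000409) and not beyond the threshold from HT-29 (0.169). Every one of these calls between lines held without KM12C DMSO replicate 3. That fit called more probe sets, 2823 in place of 1539 against HCT-116 and 5291 in place of 3104 against HT-29. The comparisons between lines were not refitted without KM12C DMSO replicate 1. The lines also differ in genotype and, for KM12C, in growth medium, and the study's main text speaks of inhibitory concentrations where the labels and its figure legend give 1 dose for these lines. The parts of genotype, medium and dose in these differences cannot be told apart. The part of a gene's signal level in the DMSO arrays of each line was not tested.

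**Figure D4:**
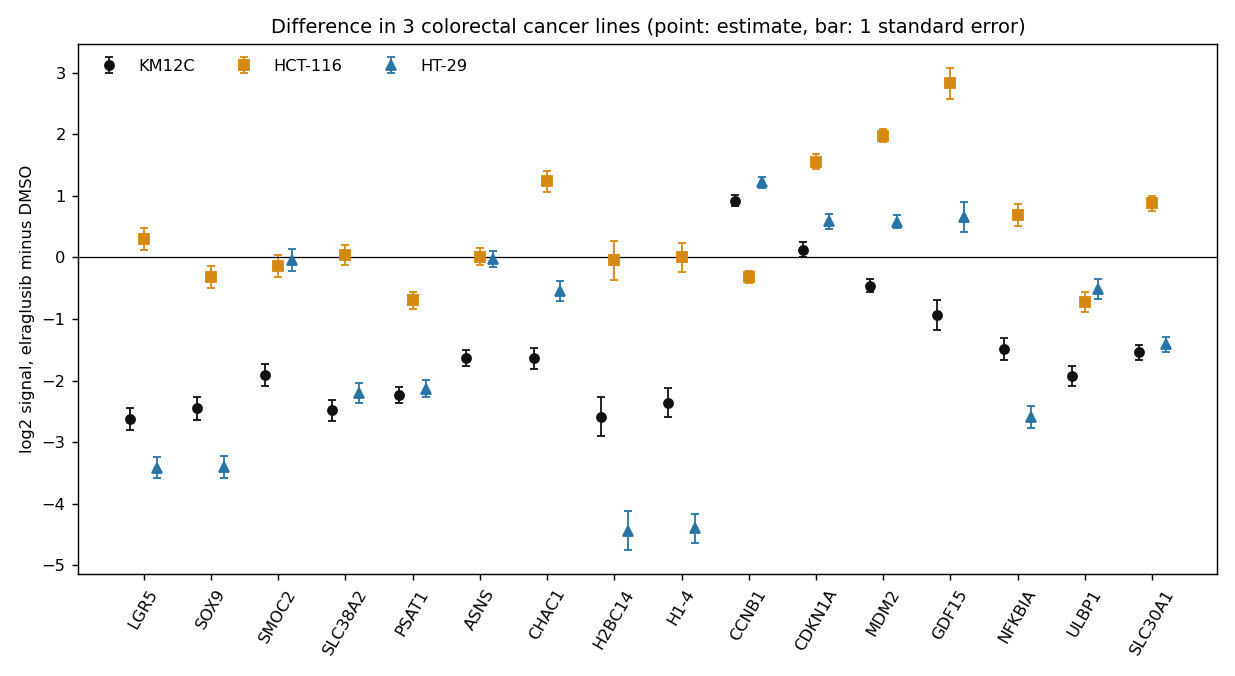
Points are limma estimates of log2 signal, elraglusib minus DMSO, for 16 genes (x axis) in KM12C (black circles), HCT-116 (orange squares) and HT-29 (blue triangles), and bars are 1 standard error. *LGR5*, *SOX9*, *SLC38A2* and *PSAT1* are low in KM12C and HT-29, *SMOC2* and *ASNS* are low in KM12C alone, and *CDKN1A*, *MDM2* and *GDF15* are highest in HCT-116.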

How the data were processed

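Per the labels and the study's methods, the authors isolated RNA from KM12C cells after 24 h, hybridized it to Human Transcriptome Arrays and summarized the scans in Transcriptome Analysis Console. They deposited log2 signals of 67528 probe sets, the version and normalization settings being not given in the sources used here. Depth is not defined for arrays, whose number limits the precision. Values of the 6 arrays were quantile-normalized and compared with limma 3.58.1 (lmFit, eBayes) in R 4.3.3, with Benjamini-Hochberg adjustment over all probe sets and a threshold of 0.05. Differences between lines were tested in a fit of 18 arrays. The platform annotation gave 23781 probe sets 1 gene symbol, 1543 several and 42204 none, and a gene with several probe sets is represented by the brightest. Named genes are those listed by the study, the 12 largest rises and falls, up to 6 members with the smallest p in each described list, and defining pathway members. Members and lists were chosen with earlier results of these data known. Alternatives were the deposited values, median centring, quantile normalization over 30 arrays, a filter on dim probe sets, trended robust moderation, a fit over 30 arrays, array weights, the replicate block, 1 probe set per gene and each array left out. The position of DMSO replicate 3 and the other probe sets of a gene were added after seeing the data. The procedure was checked on simulated data. Those data had independent noise of equal spread in every array and no displaced control, so the check does not bear on DMSO replicate 3. Promoter and microRNA sequences came from RefSeq tables (GRCh38.p14).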

Additional observations from a re-analysis of the deposited data

Results flagged for a closer look

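These values stand out because the response to elraglusib differed between KM12C and another colorectal line in limma's test of the difference itself (log2 signal, elraglusib minus DMSO, KM12C minus the other line). Against HCT-116 the difference was -2.92 for *LGR5*, -2.13 for *SOX9* and -1.78 for *SMOC2*, the crypt genes. For the stress response genes it was -2.52 for *SLC38A2*, -1.54 for *PSAT1*, -1.64 for *ASNS* and -2.88 for *CHAC1*. For *H2BC14*, *H1-4* and *CCNB1* it was -2.54, -2.36 and 1.24. The p53 targets *CDKN1A*, *MDM2* and *GDF15* differed by -1.43, -2.44 and -3.76, and *NFKBIA*, *ULBP1* and *SLC30A1* by -2.18, -1.19 and -2.42.

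Against HT-29 the response of KM12C was lower for *SMOC2*, *ASNS* and *CHAC1*, by -1.88, -1.61 and -1.10 on the log2 scale, and for *MDM2*, *GDF15* and *ULBP1*, by -1.04, -1.59 and -1.40. It was higher for *H2BC14*, *H1-4* and *NFKBIA*, by 1.85, 2.04 and 1.10, since these fell further in HT-29.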

How the results depend on the processing

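Most calls rested on the spread between 3 arrays a group. Against 1389 calls (495 higher, 894 lower), leaving out 1 array gave from 82 calls (16 higher, 66 lower, without DMSO replicate 1) to 5051 (2038 higher, 3013 lower, without DMSO replicate 3). Those past the fold and unadjusted p rule ran from 2691 to 5621, against 3382. Median centring gave 465 calls (127 higher, 338 lower), a fit over all 30 arrays 2605 (967 and 1638), array weights 3992 (1564 and 2428) and 1 probe set per gene 2133 (668 and 1465), with 1208 genes past the fold and unadjusted p rule in that fit. Leaving out dim probe sets raised the calls higher with elraglusib to 799. The deposited values, whose median difference over probe sets was 0.11, gave 1011 calls. The calls of a difference from HCT-116 went from 1539 to 1000 on deposited values and to 2823 without DMSO replicate 3, and from HT-29 from 3104 to 5291 without that array. The cause of these changes was not tested.

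Pairing of the samples by replicate number was not apparent. Deviations of same-numbered arrays correlated at -0.056, 0.042 and 0.103, and those of differently numbered arrays from -0.157 to 0.201. With 3 arrays a group these values cannot exclude pairing. With the replicate block, 422 probe sets were called (120 higher, 302 lower), 180 of the 691 called genes kept their call, and 45 of the 110 called genes among the 227 named lost their call.

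No called gene among the 227 changed sign. Uncalled genes near 0 did. *ATF4* stood at 0.062 with array weights and from -0.12 to 0.12 with 1 array left out. *CTNNB1* stood at -0.057 on deposited values, -0.20 with median centring, -0.020 with array weights and from -0.043 to 0.039 with 1 array left out, and *FADD* at -0.060, -0.20 and from -0.072 to 0.13 on deposited values, with median centring and with 1 array left out. *TNFAIP3* stood at -0.040 with median centring, -0.010 with array weights and from -0.048 to 0.095 with 1 array left out. With median centring *CDKN1A* stood at -0.00333, *IGFBP2* at -0.10 and *NQO1* at -0.057, and *HSPA5* stood at 0.057 on deposited values. With 1 array left out *IGFBP2* ran from -0.048 to 0.14, *MYD88* from -0.16 to 0.049 and *NQO1* from -0.070 to 0.31.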
